A study of Mus musculus with 8 samples.

Results

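Per1 and Per2 encode the PERIOD proteins of the circadian clock, and the chromatin around both genes was profiled in the mouse hippocampus. Members were taken by position on the mm9 build, as every deposited region and every listed peak that overlapped 1 of 2 windows. The Per1 window was chr11:68890000-68935000 (45 kb) and the Per2 window was chr1:93295000-93370000 (75 kb). The windows held 6 of the 11304 regions in the deposited count table, 2 around Per1 and 4 around Per2. They also held 182 and 201 peaks, summed over the 8 lists of peaks that were deposited 1 per library.

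The assay was Sono-seq, in which crosslinked chromatin is sheared by sound and sequenced with no antibody, so that reads collect where chromatin breaks readily. Each of the 8 libraries came from the hippocampus of an adult male C57BL/6J mouse 2 months old. The 4 mice of the conditioned group had received contextual fear conditioning, a chamber paired with 1 foot shock, and were dissected 30 min later. The 4 control mice were handled daily for 3 days, as the trained ones had been, went untrained, and were dissected at the same hour as the trained ones. Conditioning began at ZT3, 3 h after lights on, so both groups were taken at 1 phase of the daily cycle, which bears on clock genes. The whole hippocampus was used, so the number of cells with an open site and the degree of opening per cell cannot be told apart.

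In the clock, CLOCK and BMAL1 bind E-boxes in the Per genes and activate them, and the PERIOD proteins, together with the cryptochromes, return to the nucleus and repress that activation. Per1 is also an immediate-early gene: stimuli that activate the CREB protein induce it through cAMP response elements (CRE), and this is how light resets the clock in the suprachiasmatic nucleus. Both genes are expressed in the hippocampus, where they are studied for their link to the daily rhythm of memory.

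The start sites of Per1 are shown because both of these inputs, E-boxes and CREs, are known from its upstream sequence. RefSeq's promoter table (GRCm38.p6) held 2 promoters for Per1, each from 250 bases before to 50 bases after a start, and matched 1 of the 2 genes. They are printed 5′ to 3′ with motif matches in capitals: the E-box CACGTG, its variant CACGTT, the full CRE TGACGTCA, the CRE core TGACG, the D-box as TTATGTAA or TTACGTAA, the GC box GGGCGG and the CCAAT box, all searched on both strands (a minus-strand GC box reads CCGCCC and a minus-strand CCAAT box ATTGG). The full CRE contains this core.
Per1 promoter 1, chr11:69098699-69098998 on GRCm38.p6, plus strand: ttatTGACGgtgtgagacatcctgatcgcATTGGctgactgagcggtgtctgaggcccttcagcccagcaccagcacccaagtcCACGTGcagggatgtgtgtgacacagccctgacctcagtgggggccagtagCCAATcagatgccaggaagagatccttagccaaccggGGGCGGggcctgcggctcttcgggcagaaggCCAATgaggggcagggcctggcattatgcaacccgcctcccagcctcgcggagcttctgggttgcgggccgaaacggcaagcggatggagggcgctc
Per1 promoter 2, chr11:69099902-69100201 on GRCm38.p6, plus strand: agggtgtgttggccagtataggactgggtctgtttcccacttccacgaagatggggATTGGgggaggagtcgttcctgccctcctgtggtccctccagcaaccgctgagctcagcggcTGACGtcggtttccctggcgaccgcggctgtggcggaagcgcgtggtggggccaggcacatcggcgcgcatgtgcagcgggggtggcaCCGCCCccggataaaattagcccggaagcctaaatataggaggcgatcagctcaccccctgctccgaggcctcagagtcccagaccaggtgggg

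Promoter 1 held 1 E-box, with its first base at -166 when the start is counted as 0, and 1 CRE core at -246. It also held 1 GC box and 3 CCAAT boxes. Promoter 2 held no E-box, but 1 CRE core at -132, 1 GC box and 1 CCAAT box. Neither held CACGTT, the full CRE or a D-box in these letters. An E-box occurred in 7.15% of the 32851 promoters of the table, the core in 20.8%, the GC box in 35.7% and the CCAAT box in 37.4%. For the motifs with no match the shares were 4.68% (CACGTT), 1.79% (full CRE), 0.938% (TTATGTAA) and 0.119% (TTACGTAA). The GC content was 63.3% and 64.7%, above the median promoter's 52.7%. A match is a description of letters and not a measured binding site.

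The deposited files are on mm9, for which no annotation was used here, so no region or peak could be placed on an exon, an intron or one of these promoters. The marker genes of the hippocampus could not be looked up for the same reason. Other genes lie next to both loci. In RefSeq's gene order Per1 has Vamp2, which encodes the synaptic vesicle protein synaptobrevin-2, as its protein-coding neighbour on one side and Hes7, a transcriptional repressor, on the other. Per2 stands between Hes6, a member of the same gene family as Hes7, and Traf3ip1, a protein of intraflagellar transport. A region in a window may therefore belong to a neighbour, and regions are named here by window and order.

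The libraries differed in usable depth. Their total counts over regions ran from 36786183 to 83233550, but the 50 highest regions held most of these. Outside the 50, control replicates 1 and 3 had 2217162 and 2013469 counts, and the other 6 libraries had 4503240 to 14605841. A peak with a z score of at least 30 was present in 24.3% and 25.5% of all regions in those 2 controls and in 58.6% to 97.7% in the others. The z score is the authors' own value per peak, its scale is not stated, and 5 was the lowest z listed.

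Around Per1 the peak lists showed 2 strong places, with weaker ones between them and on either side. In every library but control replicate 3, the strongest peak of the window lay in 1 of the 2 listed regions. Region 1 (chr11:68901679-68902429, 750 bp) had highest z values of 29.6, 63.0, 26.0 and 61.1 in the controls (replicates 1 to 4) and of 68.3, 71.5, 117 and 118 in the conditioned libraries (same order). All 4 conditioned libraries lay above all 4 controls, which held for this 1 of the 6 regions. Of all 11304 regions, 708 (6.26%) had groups that did not overlap in their highest z, and in 705 of these (6.24% of all) the conditioned libraries were the higher. Region 2 (chr11:68931282-68931750, 468 bp) had 9.83, 52.3, 17.1 and 107 in the controls and 44.0, 21.8, 71.9 and 93.4 in the conditioned libraries, and here the groups overlapped. The lowest 2 z values of region 1 were those of control replicates 1 and 3, the libraries with the fewest counts outside the 50 highest regions, and the part of depth in this order was not tested.

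**Figure D1:**
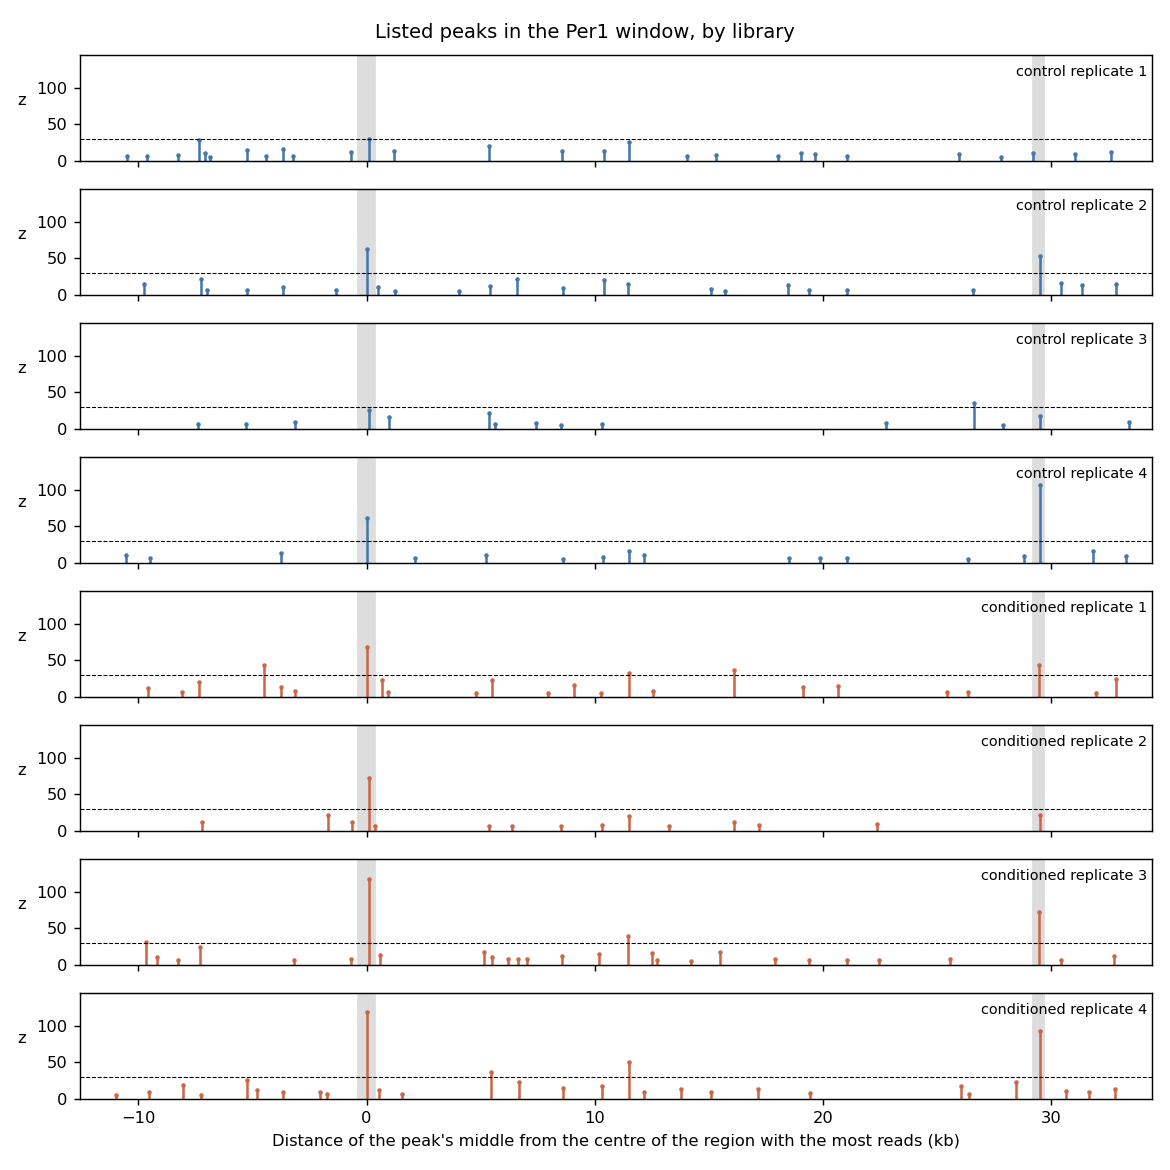
Listed peaks of the Per1 window in each library, with the z score of the peak (vertical axis) against the distance in kb from the centre of region 1 (horizontal axis). Grey bands are the 2 listed regions, and the dashed line is a z of 30. The peak in the left band passes the line in 6 libraries, and the recurrent weaker peak between the bands, at about 11.5 kb, passes it in 3 conditioned libraries.

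Between the 2 regions lay 28.9 kb with no listed region, although peaks recurred there. Peaks of all libraries were merged into sites where their gap was at most 100 bp, with 50 bp added to each listed end. The Per1 window held 57 sites, of which 24 were seen in 1 library, 19 in at least 4 and 4 in all 8. Of these 4, 2 held the listed regions, and the others were chr11:68906338-68907708, with z from 5.97 to 36.1, and chr11:68912232-68912629, with z from 5.61 to 19.8. The second of these was named after its values were seen.

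A further recurrent site, chr11:68913481-68913600, was 119 bp wide and carried by 7 libraries. Its z was 25.2, 14.6 and 16.6 in control replicates 1, 2 and 4, with no peak listed in control replicate 3, and 32.8, 20.2, 38.8 and 49.9 in the conditioned libraries (same order). It reached a z of 30 in 3 libraries, all conditioned. For each of the 11304 regions, the carriers that the authors list matched the count of libraries reaching that z, and the fewest were 4, so this site had 1 such library fewer than the listed regions with the fewest. Within their own lists, 1.39% to 12.9% of all peaks had a higher z than this one in the conditioned libraries, and 2.92%, 26.7% and 16.5% in the 3 controls. These ranges overlapped.

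The remaining strong peaks of the Per1 window recurred in few libraries at that strength. The site chr11:68892279-68892600 was carried by 6 libraries, with a z of 31.4 in conditioned replicate 3 and of 6.43 to 14.8 in the others. A z of 43.7 in conditioned replicate 1 at chr11:68897179-68898129 was joined by weak peaks in 2 libraries. The site chr11:68918138-68918190 was carried by conditioned replicates 1 and 2 alone, with z of 35.9 and 12.6, and chr11:68928631-68928708 by control replicates 2 and 3 alone, with z of 6.33 and 34.7. No site of either window was seen in all 4 libraries of a single group and absent from the other.

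Around Per2 the strongest place was a region with a strong peak in every library. Region 4 (chr1:93354694-93356388, 1694 bp) had highest z values of 40.7, 63.0, 31.5 and 98.9 in the controls (replicates 1 to 4) and of 73.5, 59.4, 92.1 and 136 in the conditioned libraries (same order). It was the only one of the 6 with a z of at least 30 in all 8 libraries, a property it shared with 4.96% of all regions. The groups overlapped, with control replicate 4 above 3 of the 4 conditioned libraries. Region 1 (chr1:93294839-93295589, 750 bp), which reaches over the edge of the window, had 6.76, 35.7, 22.6 and 42.5 in the controls and 73.9, 25.8, 30.5 and 92.9 in the conditioned libraries. Its groups overlapped too.

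**Figure D2:**
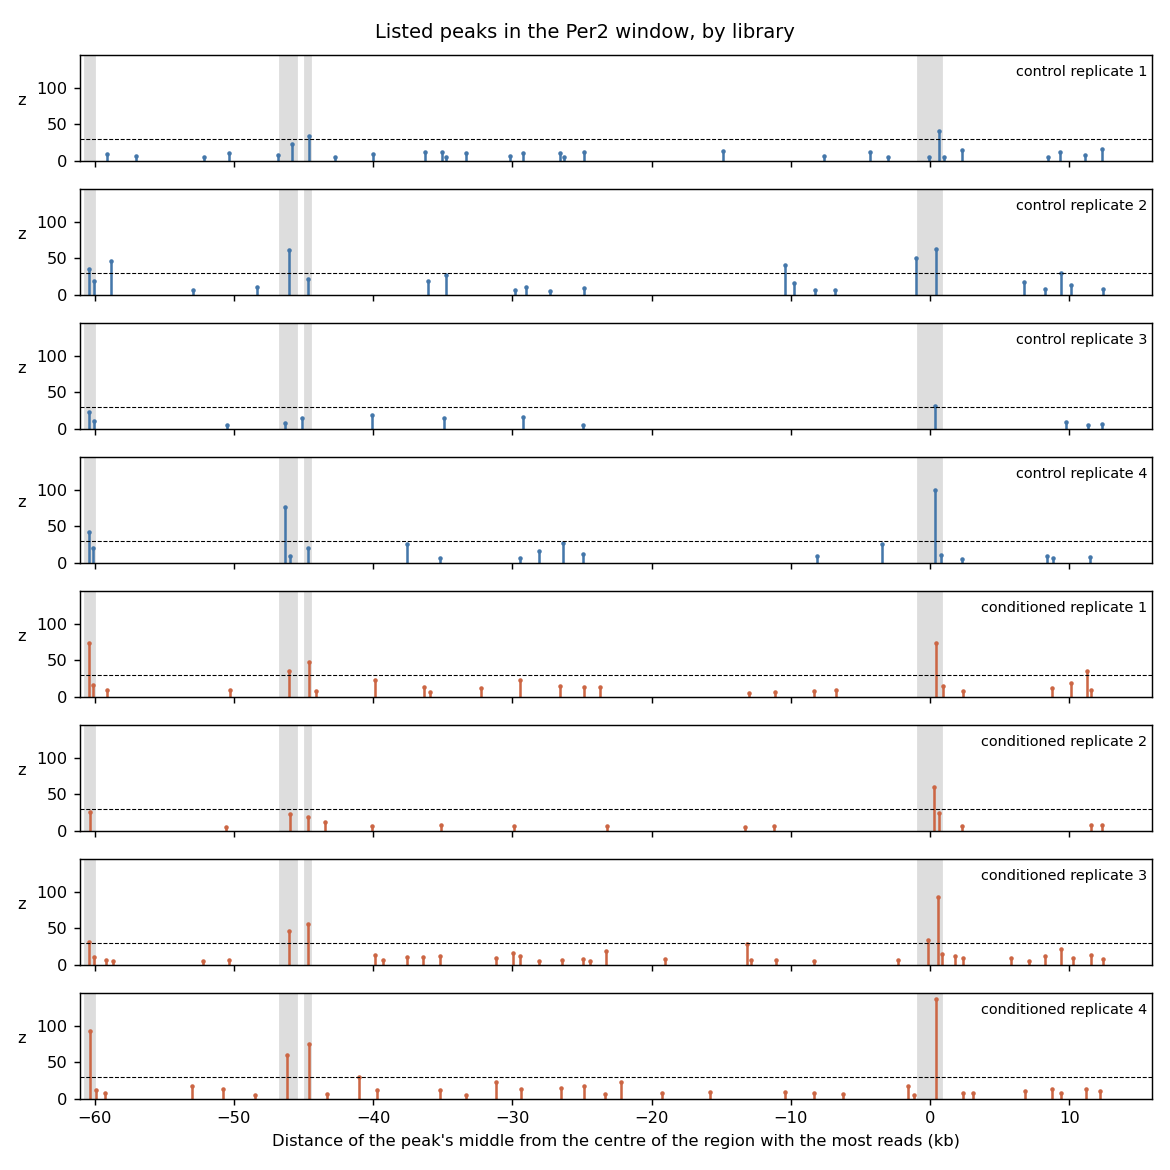
Listed peaks of the Per2 window in each library, with the z score of the peak (vertical axis) against the distance in kb from the centre of region 4 (horizontal axis). Grey bands are the 4 listed regions, and the dashed line is a z of 30. The peak at the centre passes the line in all 8 libraries, and a stretch of 43.6 kb to its left, between regions 3 and 4, holds no listed region.

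Regions 2 and 3 of the Per2 window lay 0.6 kb apart and fell into 1 merged site. Region 2 (chr1:93308889-93310044, 1155 bp) had highest z values of 22.5, 60.8, 14.5 and 76.1 in the controls and of 35.5, 22.6, 45.7 and 59.3 in the conditioned libraries. Region 3 (chr1:93310644-93311089, 445 bp) had 33.5, 21.7, 14.5 and 19.6 in the controls and 46.9, 19.4, 56.0 and 75.3 in the conditioned libraries. The 2 neighbours thus differed in which libraries were high: control replicates 2 and 4 had z above 60 in region 2 and near 20 in region 3.

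The Per2 window held 65 sites, of which 30 were seen in 1 library, 16 in at least 4 and 3 in all 8. The third of these, chr1:93325079-93326329, overlapped no listed region and had z of 6.18 to 22.3. Other sites with a z above 30 owed it to 1 library. Control replicate 2 alone gave 46.2, 40.2 and 49.6 at chr1:93296727-93296894, chr1:93345077-93345139 and chr1:93354389-93354527, each of which had 1 weak peak in another library. Conditioned replicate 1 gave 35.8 at chr1:93366129-93367144, a site that 7 libraries carried.

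In the authors' deposited table the mean z of the peaks at z of 30 or more was 83.2 and 73.6 for the Per1 regions, with 6 and 5 carriers. For Per2 regions 1 to 4 that table gave 55.1, 55.5, 52.9 and 69.9, with 5, 5, 4 and 8 carriers. The median over all its regions was 58.9, so both Per1 regions and Per2 region 4 lay above it and the other 3 below.

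Listed peaks were denser in the Per1 window than along chromosome 11 as a whole in 8 of 8 libraries, by 1.45 to 1.97 times. In the Per2 window their density was 0.897 to 1.33 times that along chromosome 1, above it in 7 of 8 libraries and below it in control replicate 3. The strongest peak of the Per1 window was exceeded by 0.109% to 3.23% of all peaks in its own library's list, and that of the Per2 window by 0.107% to 3.95%.

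Peak numbers and peak strength were compared between groups by exact permutation of the group labels (two-sided, 5 measures, smallest possible p 0.0286). After adjustment over the 5 measures, a single measure at that smallest p could not fall below 0.05 by itself. The Per1 window held 28, 25, 15 and 18 listed peaks in the controls (replicates 1 to 4) and 24, 15, 28 and 29 in the conditioned libraries (same order). The mean and SD were 21.5 ± 6.03 for control and 24.0 ± 6.38 for conditioned mice (4 a group). They differed by 2.5 with an SE of 4.39, at an exact p of 0.714, also 0.714 after Benjamini-Hochberg adjustment. Set against the length of each library's whole list the difference had the other sign, at -0.112 per 100000 peaks. The Per2 window held 30, 24, 13 and 19 peaks in the controls and 26, 16, 39 and 34 in the conditioned libraries. Here the mean and SD were 21.5 ± 7.23 and 28.8 ± 10.05. They differed by 7.25 with an SE of 6.19, at an exact p of 0.286 (adjusted 0.357). Per 100000 listed peaks this difference kept its sign, at 0.473 (exact permutation p of 0.2). In both windows the difference was within the spread between libraries.

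The highest z of the Per1 window had a mean and SD of 58.5 ± 35.3 for control and 93.7 ± 27.6 for conditioned mice. They differed by 35.3 with an SE of 22.4, at an exact p of 0.143 (adjusted 0.357). Leaving out control replicate 4, whose peak of 107 in region 2 was the highest control value, gave a difference of 51.3, and leaving out control replicate 1 gave 25.7. For the Per2 window the mean and SD were 58.5 ± 30.0 and 90.5 ± 33.4. They differed by 32.0 with an SE of 22.4, at an exact p of 0.229 (adjusted 0.357). Without conditioned replicate 4, the deepest library, the difference was 16.7. Neither difference passed the test. Divided by each library's own 99th percentile of z, the differences were 0.50 for Per1 and 0.43 for Per2 (exact permutation p of 0.143 and 0.257).

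The count table gave the second measure of the same regions. In Per1 region 1 the control libraries had 152, 918, 137 and 576 reads and the conditioned libraries 707, 826, 1539 and 1841. Scaled with TMM factors, which set a library by the bulk of its regions, these were 6.93, 9.94, 7.31 and 9.69 CPM (counts at a common library size) in the controls and 8.72, 18.8, 13.3 and 10.99 CPM in the conditioned libraries. Conditioned replicates 2, 3 and 4 lay above every control, and conditioned replicate 1 lay among them. The mean and SD were 8.47 ± 1.57 for control and 12.9 ± 4.30 CPM for conditioned mice (4 a group). The log2 fold change was 0.61 (SE 0.39; edgeR quasi-likelihood test, adjusted p = 0.738).

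Per1 region 2 had 1.41, 3.50, 3.42 and 15.7 CPM in the controls and 3.52, 2.09, 5.78 and 5.06 CPM in the conditioned libraries. Control replicate 4 stood above all others here, and the remaining values overlapped. The log2 fold change was -0.55 (SE 0.65; edgeR adjusted p = 0.896), and 0.54 without control replicate 4, so the direction rested on that library. The order of the 2 regions within a library differed as well. Region 2 had 0.111 to 0.467 times the reads of region 1 in 7 libraries, and 1.62 times in control replicate 4.

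**Figure D3:**
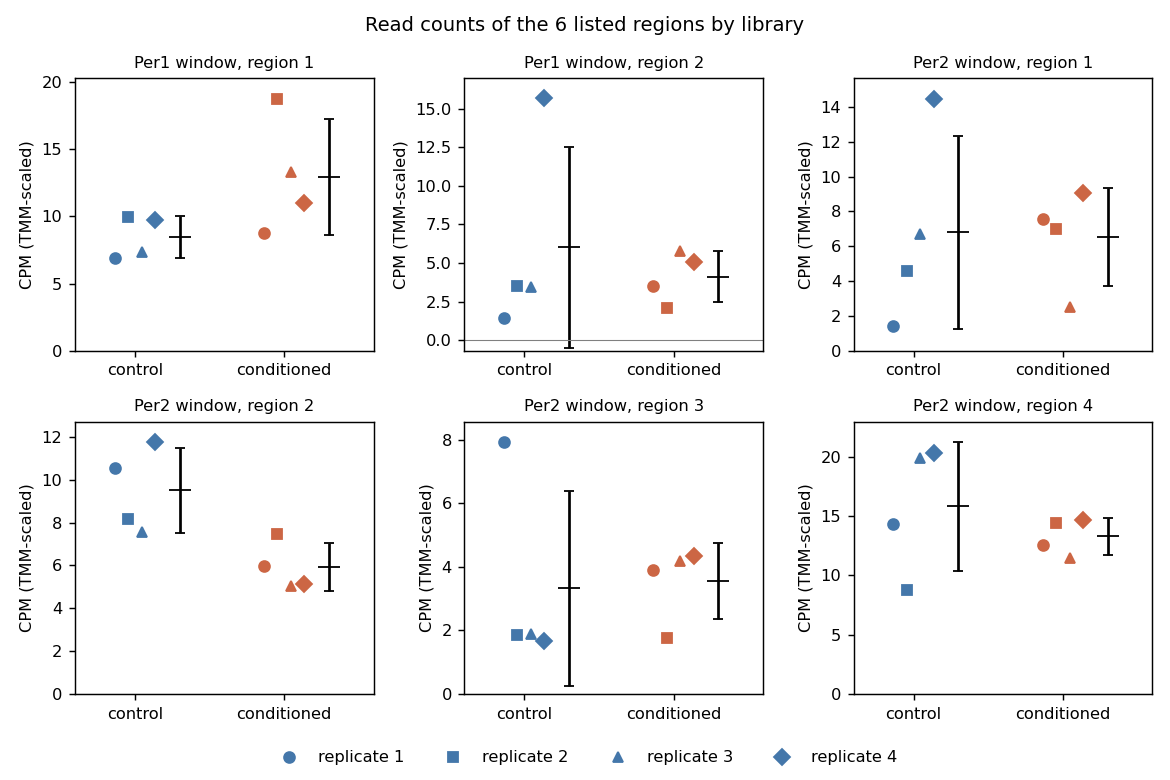
TMM-scaled CPM (vertical axes, each with its own scale) of the 6 listed regions in the 4 control and 4 conditioned libraries. Symbols mark replicates, and bars show the mean and SD, which for the controls of Per1 region 2 reaches below 0. The groups are apart in region 2 of the Per2 window alone, where controls had 7.58 to 11.8 CPM and conditioned libraries 5.06 to 7.47 CPM; with totals alone they overlap.

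Per2 region 4, the region with the most reads in that window, had 14.4, 8.73, 19.9 and 20.3 CPM in the controls and 12.6, 14.4, 11.4 and 14.7 CPM in the conditioned libraries. The conditioned values lay inside the range of the controls. The mean and SD were 15.8 ± 5.44 for control and 13.3 ± 1.53 CPM for conditioned mice. The log2 fold change was -0.25 (SE 0.38; edgeR adjusted p = 0.921).

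Per2 region 2 was the only 1 of the 6 whose groups did not overlap in TMM-scaled CPM. It had 10.6, 8.15, 7.58 and 11.8 CPM in the controls and 6.00, 7.47, 5.06 and 5.13 CPM in the conditioned libraries. The highest conditioned value came close to the lowest control value. The mean and SD were 9.52 ± 1.99 for control and 5.91 ± 1.12 CPM for conditioned mice. The log2 fold change was -0.69 (SE 0.40; edgeR adjusted p = 0.711), so the difference did not pass the test. Across all regions, 271 (2.4%) had groups that did not overlap in CPM, in either direction. The separation of Per2 region 2 was not there with totals alone, where controls had 3.51 to 12.2 and conditioned libraries 6.40 to 10.3 counts at a common library size and the log2 fold change was 0.090. Its highest z values, given above, overlapped too.

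Its neighbour, Per2 region 3, had 7.93, 1.84, 1.87 and 1.65 CPM in the controls and 3.91, 1.77, 4.19 and 4.35 CPM in the conditioned libraries. Control replicate 1 was the highest of all 8 and the other 3 controls were near the lowest conditioned library. The log2 fold change was 0.11 (SE 0.60; edgeR adjusted p = 0.983), and 0.98 without control replicate 1. Without control replicate 2, 3 or 4 it was -0.095, -0.12 and -0.16. The reads of region 3 over those of region 2, a ratio within a library that needs no scaling, were 0.75, 0.226, 0.246 and 0.14 in the controls and 0.652, 0.237, 0.827 and 0.849 in the conditioned libraries. A single control and 3 conditioned libraries had ratios above 0.6, and the other 4 libraries had ratios below 0.25.

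Per2 region 1 had 1.41, 4.60, 6.67 and 14.5 CPM in the controls and 7.58, 6.97, 2.48 and 9.04 CPM in the conditioned libraries. The controls spanned the whole range of the conditioned libraries. The log2 fold change was -0.06 (SE 0.61; edgeR adjusted p = 0.992). It was 0.60 without control replicate 4 and 0.21 without conditioned replicate 3, so it had no firm sign.

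None of the 6 regions was called at adjusted p below 0.05, and none had an unadjusted p below 0.05. In the same fit 0 of 11304 regions (0%) passed the adjusted threshold, with a smallest adjusted p of 0.605, and 881 (7.79%) had an unadjusted p below 0.05. Limma voom called 0, with 472 at an unadjusted p below 0.05, and DESeq2's Wald test called 40 regions, none of them in the windows. The median log2 fold change was -0.16 over the 6 regions and -0.05 over all regions, and the 5th and 95th percentiles of all regions, -1.37 and 0.82, enclosed all 6. The median SE was 0.50 over all regions, and the SE of the 6 ran from 0.38 to 0.65. How often changes of the size seen in the members would be called at this spread between libraries is not reported here.

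Scaling decided the sign for 4 of the 6. With totals alone in place of TMM factors, the median of all regions moved to 0.75, and the Per1 regions then had 1.28 and 0.11, and the Per2 regions 0.59, 0.090, 1.43 and 0.68. Relative to the median of all regions, Per1 region 1 and Per2 region 3 were above it and the other 4 below it under both scalings.

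**Figure D4:**
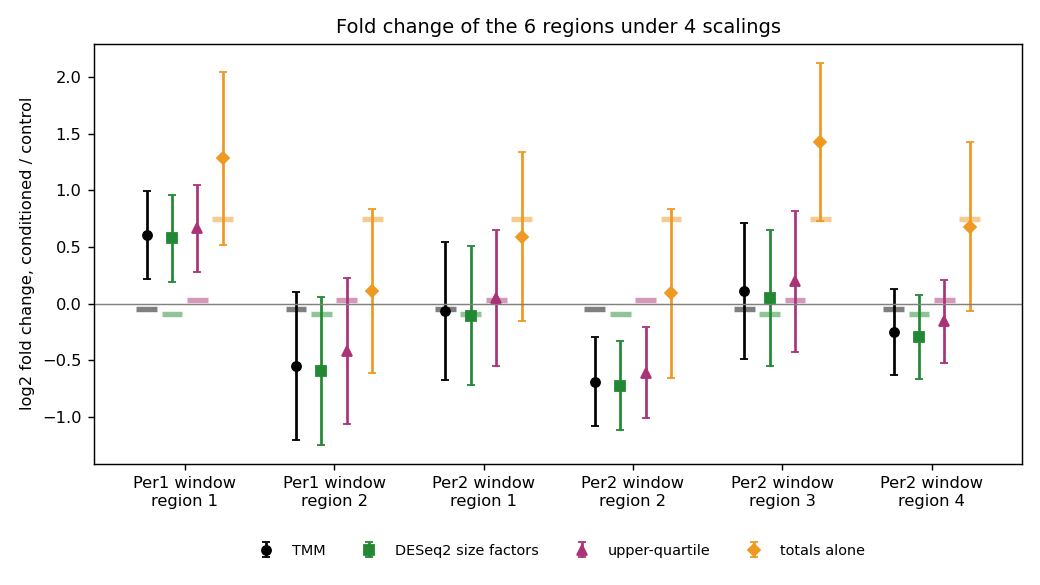
Log2 fold change of the 6 listed regions, conditioned over control (vertical axis), with its SE as bars, under 4 scalings of the libraries. Short pale bars give the median of all regions under each scaling. With totals alone all 6 values lie above 0 while the median of all regions is at 0.75, and with TMM factors 2 of the 6 lie above 0.

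A comparison of the 2 loci within each library needs no scaling between libraries. The reads of the 2 Per1 regions over those of the 4 Per2 regions gave ratios of 0.243, 0.576, 0.298 and 0.527 in the controls (replicates 1 to 4) and of 0.407, 0.681, 0.824 and 0.484 in the conditioned libraries (same order). The Per2 regions, more in number and wider in sum, had more reads in all 8 libraries, and the groups overlapped. With Per1 region 1 over Per2 region 4 alone, the log2 ratio was above 0 in control replicate 2 (0.19) and conditioned replicates 2 and 3 (0.38 and 0.22). It was below 0 in the other libraries. For the summed reads, the mean and SD of the log2 ratio were -1.38 ± 0.61 for control and -0.79 ± 0.46 for conditioned mice. They differed by 0.58 with an SE of 0.38, at an exact p of 0.2 (adjusted 0.357). The difference did not pass the test.

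Per length, Per1 region 1 had the highest mean of the 6, with 14.3 CPM per kb against 8.04 for the median region, and more than 87.7% of all regions. Per1 region 2 had a mean of 10.8 CPM per kb, and the Per2 regions had 8.87, 6.68, 7.73 and 8.58 in order of position. The value of Per1 region 2 rested on control replicate 4, with 33.5 CPM per kb against 3.02 to 12.3 in the other 7 libraries. Without that library, a comparison added after seeing the data, its mean was 7.56 and those of the Per2 regions were 7.38, 6.18, 8.30 and 8.10, while Per1 region 1 had 14.5. Per1 region 1 was the densest member in all 4 conditioned libraries and in control replicate 2. In control replicates 1, 3 and 4 the densest member was Per2 region 3, Per2 region 4 and Per1 region 2. The order among Per1 region 2 and the 4 Per2 regions is not resolved. The coefficient of variation of CPM between libraries was 35.8% for Per1 region 1, 89.5% for Per1 region 2 and 27.1% to 62.9% for the Per2 regions. The median over all regions was 47.7%.

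Over the 8 libraries, the regions elsewhere in the genome with the pattern most like Per1 region 1 in log2 CPM were chr17:34401307-34402310, chr15:102767355-102767919 and chr12:47919098-47920698, with Pearson's r of 0.982, 0.961 and 0.959. For Per2 region 4 they were chr3:117919667-117920125, chr8:91565639-91566341 and chr9:72772735-72773885, with r of 0.932, 0.924 and 0.923. These are the highest values in the table, over 8 libraries whose depth all regions share, and they describe likeness alone. The top regions of the 2 loci had an r of -0.237 with each other.

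Just outside the windows, the nearest listed regions were chr11:68935582-68936579, 582 bp beyond the Per1 window with 15.5 ± 9.05 CPM for control and 16.2 ± 2.29 CPM for conditioned mice (mean and SD), and chr11:68872881-68874332, 15668 bp before it. Around the Per2 window the nearest lay 31611 bp before and 20883 bp after it.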

How the data were processed

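The windows, the measures and the alternatives were chosen with earlier results of these data known. Bowtie2 was used and the build was mm9, per the submitters' processing notes. How peaks were called, reads counted and duplicates treated is not given in the sources used here. The deposited count table holds raw read counts per region, with 0 columns unused. The authors' region list adds each region's mean z score and its carriers, and the deposited peak lists hold 1 z score per peak in each library. Counts were fitted over all 11304 regions by edgeR's quasi-likelihood test (version 4.0.16 under R 4.3.3; TMM factors, group as the only term, Benjamini-Hochberg over all regions). The filter (minimum count 10, minimum total 15) removed 0 regions. The SE is the size of the log2 fold change over the square root of F. The fit was tested on simulated data. The labels describe no molecular identifiers, so depth speaks to counting error only. Peaks were handled in Python 3.11.15 with pandas 2.3.3, and exact permutation tests came from scipy 1.17.1. Alternatives were DESeq2 1.42.0, limma 3.58.1 (voom), other scalings, a fit without the 50 highest regions, a replicate block, each library left out, z minimums of 10 and 30, other site gaps and whole overlap. All regions in a window are named; sites are named if all 8 libraries carried them or 1 reached a z of 30, up to 8 a window by median z. A list of clock genes elsewhere in the genome was not analysed here, since no mm9 annotation was used. Region and peak positions are the files' own, so starts may be off by 1 from a genome browser. The labels describe separate animals, so p-values measure the spread between animals together with library preparation.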

Additional observations from a re-analysis of the deposited data

Results flagged for a closer look

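In 3 of 22 groups of 4 libraries, 1 library stood apart from the rest by Dixon's test at the 5% level. Chance flags about 1 in 20 independent groups, and these groups share the same libraries. In Per1 region 2, control replicate 4 had 15.7 CPM while the other controls lay between 1.41 and 3.50. In Per2 region 3, control replicate 1 had 7.93 CPM while the other controls lay between 1.65 and 1.87. In the same region, conditioned replicate 2 had 1.77 CPM while the other conditioned libraries lay between 3.91 and 4.35. In control replicate 4 the other listed region of the Per1 window had 9.69 CPM, within the range of the other controls.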

How the results depend on the processing

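No alternative called any of the 6 regions. Over all regions, totals alone called 6 and DESeq2's Wald test 40 (adjusted p NA for 166), against 0 in the other fits and without any 1 library; the cause was not tested. The sign of a log2 fold change turned with totals alone in Per1 region 2 (0.11) and Per2 regions 1, 2 and 4 (0.59, 0.090 and 0.68), and in Per2 region 1 also with upper-quartile factors (0.050), voom (0.024) and the replicate block (0.17). Without 1 library, Per1 region 2 ranged from -0.89 to 0.54, Per2 region 1 from -0.41 to 0.60 and Per2 region 3 from -0.16 to 0.98, each with both signs. Per1 region 1 (0.38 to 0.76), Per2 region 2 (-0.82 to -0.60) and Per2 region 4 (-0.45 to -0.14) kept their sign there. The difference in peaks was -0.112 per 100000 listed peaks in the Per1 window and 0.473 in the Per2 window. Without 1 library the differences in peaks ranged from 0.333 to 5.5 (Per1) and from 3.83 to 11.5 (Per2). Those in highest z ranged from 25.7 to 51.3 and from 16.7 to 45.4, and that in the log2 ratio from 0.36 to 0.77. With 1 library left out the exact test cannot give a p below 0.0571, so it could not pass 0.05 in any of these. Sites with at least 4 carriers numbered 19 (Per1) and 16 (Per2). With a z of at least 10 in those carriers they were 9 and 10, fewer by construction. With a gap of 0 bp they were 14 and 10, and with a gap of 500 bp 15 and 16. Sites with at least 1 library at a z of at least 30, a different rule that also takes sites with under 4 carriers, numbered 8 and 7. Counted only when wholly within the window, the Per2 regions were 3 in place of 4.

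The work ran over 4 days, per the labels. The library names carry the same set of numbers in both groups, but the labels do not say that a number marks a day. Deviations of same-numbered libraries had r of 0.161, 0.0482, -0.063 and 0.272 (replicates 1 to 4), not always the highest for the own number. These r cannot decide whether a number marks a shared day, and the main tests did not pair by number. The replicate block left the count of calls at 0 (smallest adjusted p 0.446). The highest z of the Per1 window rose in all 4 same-numbered pairs. Its exact paired permutation p was 0.125, the smallest that test can give, and the other window measures had 0.25 to 0.75. The median SE of 0.50 over all regions exceeds the size of the log2 fold change in 3 of the 6. In Per1 region 2 the region's own SE exceeds that size too (0.65 against a log2 fold change of -0.55). The part of depth in the median SE was not tested.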
